A study of Rattus norvegicus with 8 samples.

Results

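Keratins and urothelial genes were followed in whole kidneys of the HSRA rat, a model of unilateral renal agenesis bred from heterogeneous stock, in which one kidney can be missing at birth. The 10 genes were the simple epithelial keratins Krt7, Krt8, Krt18 and Krt19, the basal cell keratins Krt5 and Krt14, the umbrella cell keratin Krt20, the uroplakins Upk1b and Upk3bl1, and the surface protein gene Psca. A gene was taken as measured where a probe set, the group of probes that reports a transcript, was paired with that symbol alone. This held for 8 of the 10 genes with 9 probe sets, out of 17245 genes measured this way. Krt8 had 2 probe sets, Krt5 shared its probe set with other keratins (3 symbols in all), and Krt18 had none in the annotation used here, so no value is given for Krt5 or Krt18.

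HSRA-S stands for 4 kidneys from rats born with only that kidney (congenital solitary kidney). HSRA-C stands for 4 kidneys from rats that have a kidney pair, and these were the control. All animals carried the HSRA background and were 4 weeks old, so the control is not an unrelated strain. Each kidney was measured on its own Rat Gene 1.1 ST array. The samples are labelled as biological replicates, and the sources used here do not give sex, litter or whether the renal pelvis was kept. Levels are log2 of the deposited intensities, and each difference is the HSRA-S mean minus the HSRA-C mean. With 4 arrays per group, their number sets how precise any value can be.

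Keratins are the intermediate filaments of epithelial cells and form filaments as pairs of a type I and a type II chain. Krt8 and Krt18 are the first pair of simple epithelia, with Krt7 and Krt19 added in ducts, whereas Krt5 and Krt14 pair in basal cells of layered epithelia. In the kidney, the collecting duct and the urothelium of the pelvis are the main keratin-bearing epithelia. Uroplakins are membrane proteins that form the plaques on the umbrella cells of the urothelium, where Krt20 is the keratin of the surface layer. Krt8 and Krt18 are next to each other among the protein-coding genes of the RefSeq rat table (assembly GRCr8), as are Upk3bl1 and Upk3b.

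The kidneys were alike in median intensity, which ran from 30.8 to 32.3, and the arrays correlated at 0.987 to 0.995 on the log2 scale. HSRA-C replicates 3 and 4 were the highest kidneys for 4 of the 11 measured collecting duct markers (Slc14a2, Aqp4, Fxyd4 and Aqp2) and not for the other 7. Tfcp2l1 was lowest in HSRA-C replicate 3, and Scnn1b was highest in HSRA-C replicate 1. The mean of 15 measured proximal tubule markers minus that of 11 measured collecting duct markers was 1.91 to 2.87 in HSRA-S and 2.14, 1.93, 1.36 and 1.26 in HSRA-C replicates 1 to 4. HSRA-S replicate 4, at 2.87, lay at the other end. This mean leans on the few markers of wide range, above all Slc14a2. The difference of the list medians, taken after the data were seen, was 2.44 to 2.85 in HSRA-S and 2.35, 2.35, 1.71 and 1.76 in HSRA-C replicates 1 to 4. The results that rest on these kidneys are given with and without HSRA-C replicates 3 and 4, and with each marker difference as a covariate. In whole kidney, fewer cells of a type and less RNA per cell cannot be told apart.

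None of the 7 genes tested passed at an adjusted p under 0.05 in limma's fit across 13796 genes, where 0 genes passed (0%). At an unadjusted p under 0.05 Krt8 was the only tested gene of the group, on the higher side, against 7.36% of all tested genes higher and 4.69% lower. The simple keratins Krt8 and Krt19 had positive differences, Krt7 was close to 0, and Psca and Upk3bl1 had the largest negative ones. The groups overlapped for all 7 genes, against 6.29% of tested genes whose groups did not overlap. Krt20 lay below the filter on dim genes, a log2 mean of 3.63 over all arrays, and was not tested with the others.

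**Figure D1:**
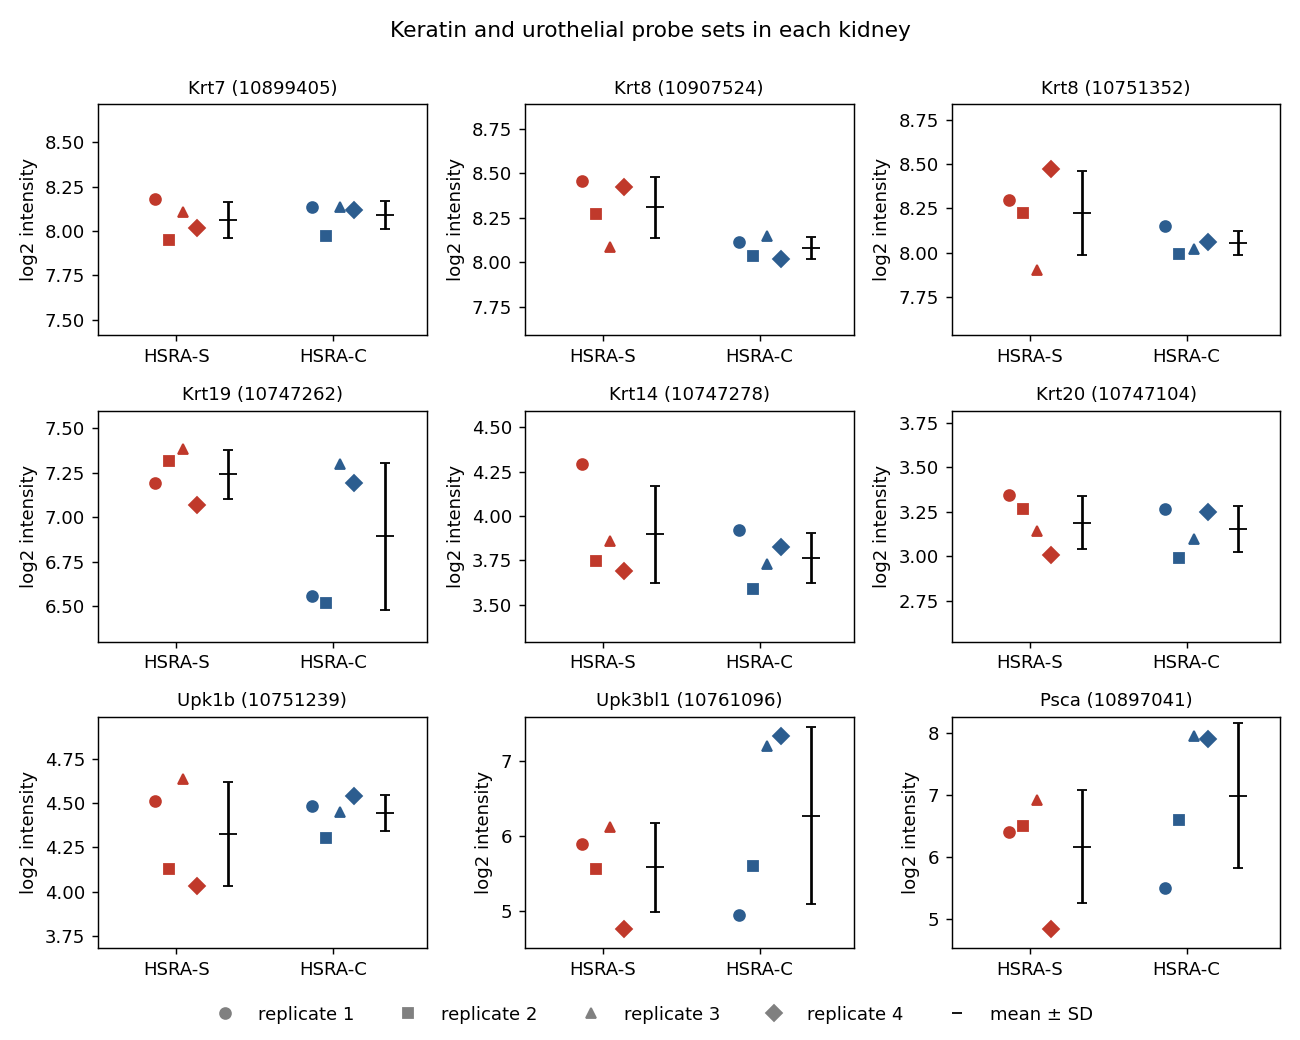
Log2 intensity (vertical axis, its range set for each panel) of the 9 probe sets in 4 HSRA-S (left, red) and 4 HSRA-C kidneys (right, blue), with the symbol giving the replicate and the black bar the mean ± SD. In the Psca and Upk3bl1 panels HSRA-C replicates 3 and 4 lie above all other kidneys, and in the Krt19 panel HSRA-C replicates 1 and 2 lie below all others.

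Krt8, the type II keratin of simple epithelia, had a slightly higher mean in the solitary kidneys but did not pass the adjusted threshold. Its brighter probe set (10907524) read 8.46, 8.27, 8.08 and 8.42 in HSRA-S replicates 1 to 4, against 8.11, 8.04, 8.15 and 8.02 in HSRA-C replicates 1 to 4. Replicates 1, 2 and 4 of HSRA-S lay above every HSRA-C kidney, while HSRA-S replicate 3 lay among them. The difference was 0.23 (SE 0.087, 95% interval 0.036 to 0.42), which is 1.17-fold, with an adjusted p of 0.361 in limma. The limma p before adjustment was 0.0245.

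The other Krt8 probe set (10751352) read 8.30, 8.22, 7.90 and 8.47 in the HSRA-S kidneys, against 8.15, 7.99, 8.02 and 8.06 in the HSRA-C kidneys. HSRA-S replicate 4 was the highest and HSRA-S replicate 3 the lowest of all 8 kidneys there. Its difference was 0.17 (SE 0.11), with an unadjusted limma p of 0.153. With the mean over the probe sets of each gene, the Krt8 difference was 0.20 and its unadjusted limma p 0.0620. Closely related keratin sequences may share probes, so the Krt8 values are uncertain to that extent.

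The Krt8 difference stayed positive in each of these settings. It was 0.23 (SE 0.11) without HSRA-C replicates 3 and 4 and 0.16 (SE 0.10) with the marker difference as covariate. The unadjusted limma p was then 0.0751 and 0.152. With the list medians as covariate the difference was 0.19 (SE 0.13).

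Krt19, a type I keratin of ducts, was the keratin whose value depended most on which controls were used. It read 7.19, 7.32, 7.38 and 7.07 in HSRA-S replicates 1 to 4, against 6.56, 6.52, 7.30 and 7.19 in HSRA-C replicates 1 to 4. The solitary kidneys were close together, and the controls formed a low pair, replicates 1 and 2, and a pair at the HSRA-S level, replicates 3 and 4. Krt19 averaged 7.24 ± 0.14 in the solitary kidneys and 6.89 ± 0.41 in the controls (SD, n = 4 each). The difference was 0.35 (SE 0.18, 95% interval -0.045 to 0.74), with an adjusted p of 0.455 in limma.

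Without HSRA-C replicates 3 and 4 the Krt19 difference was 0.70 (SE 0.10, 95% interval 0.47 to 0.94), a value over 1.5 times the one from all arrays. The unadjusted limma p was then 0.000119 and the adjusted p 0.977, with 2.68% of all genes higher at an unadjusted p under 0.05. The groups did not overlap in that comparison of 4 with 2 kidneys, which also held for 8.42% of all genes on the higher side. Krt19 thus did not pass over all genes in that comparison either. The controls left out there were those with Krt19 at the HSRA-S level. The larger difference and the lack of overlap followed from that choice, so the small unadjusted limma p is no separate support. With the marker difference as covariate the Krt19 difference was 0.68 (SE 0.14), with an unadjusted limma p of 0.000734 and an adjusted p of 0.585. With that covariate 5.11% of all genes were higher at an unadjusted p under 0.05. With the list medians as covariate it was 0.90 (SE 0.12, adjusted p = 0.362 in limma), where 3.67% of all genes were higher at an unadjusted p under 0.05. Those medians did not overlap between the groups, so that fit separates group and covariate poorly. The marker difference did overlap, but its mean was also higher in HSRA-S, so that covariate is partly confounded with group too.

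Single controls moved Krt19 both ways. Without HSRA-C replicate 1 its difference was 0.24 (SE 0.17), and without HSRA-C replicate 2 it was 0.22 (SE 0.17), with unadjusted limma p-values of 0.205 and 0.218. Without HSRA-C replicate 3 it was 0.48 (SE 0.16), with an unadjusted limma p of 0.0150 and an adjusted p of 0.653. In that comparison 4.8% of all genes were higher at an unadjusted p under 0.05. Without HSRA-C replicate 4 it was 0.45 (SE 0.18), with an unadjusted limma p of 0.0345 and an adjusted p of 0.667, and that share was 4.5%. The sign was positive each time, and the size was smallest without one of the controls of low Krt19. The Krt19 values ranged over 0.87 on the log2 scale across the 8 kidneys. Over all 8 kidneys together they did not follow the order of Psca or of Slc14a2. Within HSRA-S, however, Krt19, Psca and Slc14a2 all rose in the order of replicates 4, 1, 2 and 3. Within HSRA-C, replicates 1 and 2 were below replicates 3 and 4 for each of these genes.

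Krt7, a type II keratin of ducts and urothelium, was nearly level. It read 8.18, 7.95, 8.11 and 8.02 in the HSRA-S kidneys, against 8.14, 7.97, 8.14 and 8.12 in the HSRA-C kidneys. Its highest and lowest kidneys were both HSRA-S, and they were 0.23 apart. The difference was -0.029 with a 95% interval from -0.19 to 0.13 (adjusted p = 0.904 in limma). Without HSRA-C replicates 3 and 4 it was 0.0085.

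Krt8 and Krt7 were also compared within each array. Krt8 minus Krt7 within each array was 0.28, 0.32, -0.021 and 0.41 in HSRA-S, against -0.023, 0.066, 0.014 and -0.099 in HSRA-C. HSRA-S replicates 1, 2 and 4 lay above all controls, and HSRA-S replicate 3 lay within them.

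Psca, a GPI-anchored surface protein of urothelium and other epithelia, had the widest spread of the group. It read 6.40, 6.50, 6.92 and 4.84 in HSRA-S replicates 1 to 4, against 5.50, 6.61, 7.95 and 7.91 in HSRA-C replicates 1 to 4. HSRA-C replicates 3 and 4 were the highest kidneys by 0.99, HSRA-S replicate 4 was the lowest, and HSRA-C replicate 1 was next to it. Psca averaged 6.16 ± 0.91 in the solitary kidneys and 6.99 ± 1.17 in the controls (SD, n = 4 each). The difference was -0.83 (SE 0.58, 95% interval -2.12 to 0.47), which is 1.77-fold lower, with an adjusted p of 0.591 in limma.

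Upk3bl1, a uroplakin 3b-like gene, varied across the kidneys much as Psca did. It read 5.89, 5.56, 6.12 and 4.76 in HSRA-S replicates 1 to 4, against 4.95, 5.60, 7.20 and 7.33 in HSRA-C replicates 1 to 4. Again HSRA-C replicates 3 and 4 were highest, by 1.08, and HSRA-S replicate 4 and HSRA-C replicate 1 were lowest. The difference was -0.69 (SE 0.52, 95% interval -1.84 to 0.46), or 1.61-fold lower, with an adjusted p of 0.613 in limma. Psca and Upk3bl1 were both among the 38 genes at least 1.5-fold lower in HSRA-S (0.275% of those tested), a count of fitted differences that takes no account of their error.

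The highest and lowest kidney differed by 3.11 for Psca and by 2.57 for Upk3bl1, which is 8.66-fold and 5.93-fold. Only 33 of 13796 genes (0.239%) had a range of 2 or more, and Psca had rank 6 and Upk3bl1 rank 11 in that order. The collecting duct markers Slc14a2 (rank 1), Aqp4 (rank 14) and Fxyd4 (rank 32) and the urothelial gene Sprr1a (rank 25) were also among them. The ranges of the other tested members were 0.87 for Krt19, 0.70 for Krt14, 0.60 for Upk1b, 0.44 for Krt8 and 0.23 for Krt7. Without HSRA-C replicates 3 and 4, Psca still ranged over 2.08 and Upk3bl1 over 1.36.

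**Figure D2:**
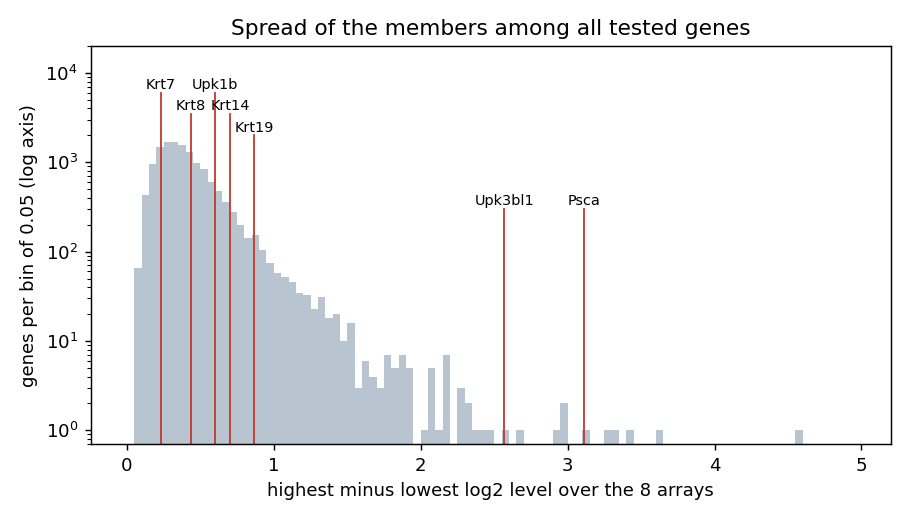
Distribution of the range over the 8 kidneys (highest minus lowest log2 level, horizontal axis) for the 13796 tested genes, as genes per bin on a log axis, with the 7 tested members marked by red lines. Psca at 3.11 and Upk3bl1 at 2.57 lie in the sparse right end, and the keratins and Upk1b lie between 0.23 and 0.87.

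The sign of the Psca and Upk3bl1 differences turned without HSRA-C replicates 3 and 4 and with the covariates. These replicates were the highest kidneys for both genes, so leaving them out had to raise the differences. The marker difference includes Slc14a2, Aqp4 and Fxyd4, which had the same kidneys at both ends as Psca and Upk3bl1. Without HSRA-C replicates 3 and 4 the Psca difference was 0.11 (SE 0.55) and the Upk3bl1 difference 0.31 (SE 0.35), both positive. With the marker difference as covariate they were 0.48 (SE 0.18) and 0.42 (SE 0.25), with adjusted p-values of 0.604 and 0.708 in limma. Psca then had an unadjusted limma p of 0.0229, beside 5.11% of all genes higher at that threshold. With the list medians as covariate they were 0.98 (SE 0.38) and 1.04 (SE 0.20), with adjusted p-values of 0.841 and 0.832 in limma, in a fit that separates group and covariate poorly. Both differences stayed negative when any single kidney was left out. Without HSRA-C replicate 1 alone, the differences were -1.32 for Psca and -1.13 for Upk3bl1, with adjusted p-values of 0.290 and 0.309 in limma. Both were then under 0.05 before adjustment (limma p of 0.0236 and 0.0294), where 6.3% of all genes were lower at that threshold. Without HSRA-S replicate 4 they were -0.38 and -0.41, without HSRA-C replicate 3 they were -0.51 and -0.38, and without HSRA-C replicate 4 they were -0.52 and -0.33.

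**Figure D3:**
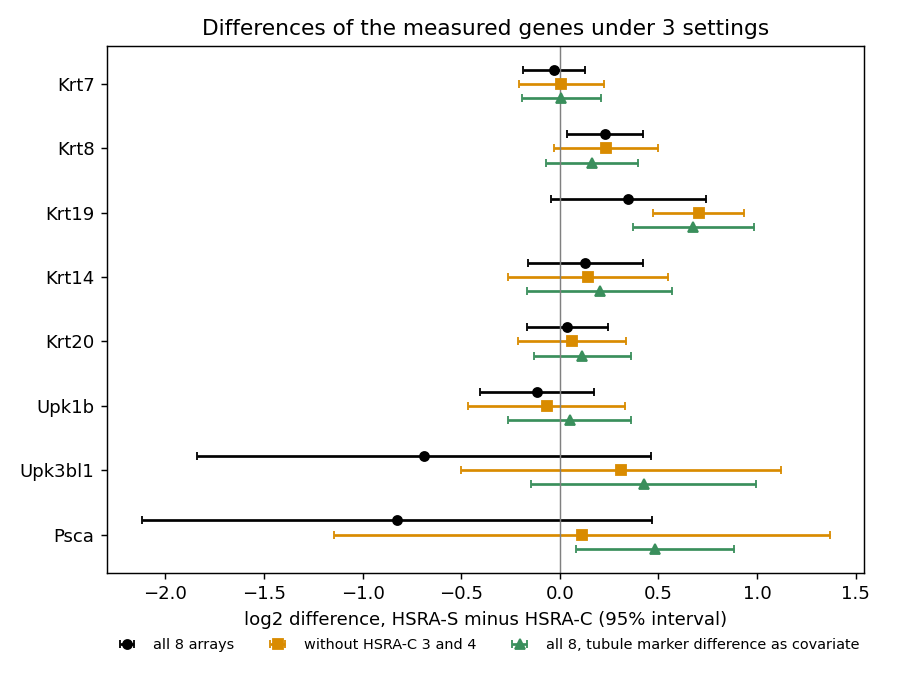
Log2 difference, HSRA-S minus HSRA-C, with its 95% interval (horizontal axis) for the 8 measured genes, from all 8 arrays (black circles), without HSRA-C replicates 3 and 4 (orange squares), and with the proximal tubule minus collecting duct marker difference as covariate (green triangles). Of these 3 settings, the Psca and Upk3bl1 differences are negative only from all arrays without the covariate, and Krt19 lies at 0.35, 0.70 and 0.68.

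Of the 11 measured collecting duct markers, 3 (Slc14a2, Aqp4 and Fxyd4) had the same kidneys at both ends as Psca and Upk3bl1, and 8 did not. Slc14a2 and Aqp4 are shown, chosen with their pattern known. Slc14a2, which carries urea across inner medullary collecting duct cells, read 6.85, 7.04, 7.22 and 4.44 in HSRA-S, against 5.99, 6.44, 8.86 and 9.0 in HSRA-C. Aqp4, a basolateral water channel of medullary collecting duct, read 6.25, 6.55, 6.78 and 5.22 in HSRA-S, against 5.45, 6.79, 7.31 and 7.57 in HSRA-C. In both genes HSRA-S replicate 4 and HSRA-C replicate 1 were the lowest kidneys and HSRA-C replicates 3 and 4 the highest, as they were for Psca and Upk3bl1. The mean of the 11 measured collecting duct markers, among them the water channel Aqp2 and the transcription factor Tfcp2l1, was 7.77 to 8.36 in HSRA-S and 8.13 to 8.80 in HSRA-C. All 11 were tested, 0 had a positive difference and 0 passed the adjusted threshold. At an unadjusted limma p under 0.05, 0 were higher and 2 lower, against 7.36% and 4.69% of all tested genes. The part of these markers in the Psca and Upk3bl1 values was not tested beyond the covariates and the samples left out.

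**Figure D4:**
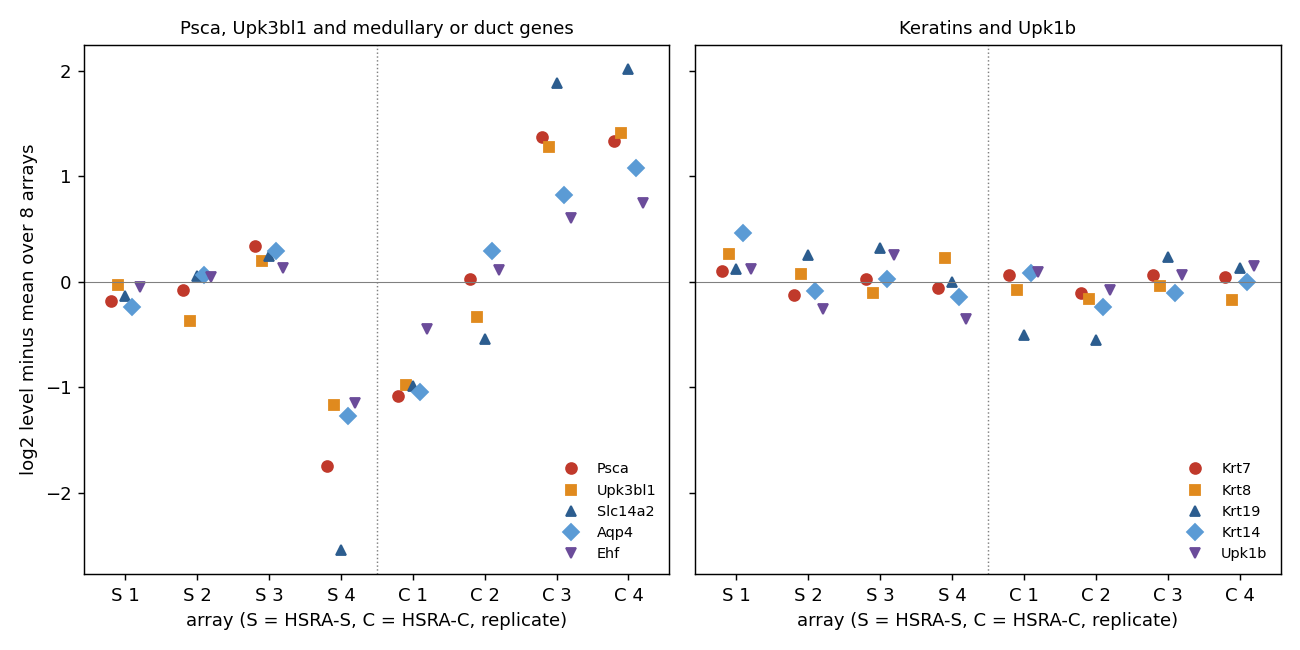
Log2 level minus each gene's mean over the 8 kidneys (vertical axis) in each array, HSRA-S left and HSRA-C right of the dotted line, for Psca, Upk3bl1 and 3 other genes (left panel) and for 4 keratins and Upk1b (right panel). Psca, Upk3bl1, Slc14a2, Aqp4 and Ehf are lowest in HSRA-S replicate 4 and highest in HSRA-C replicates 3 and 4, whereas the keratins and Upk1b stay closer to 0 and Krt19 is lowest in HSRA-C replicates 1 and 2.

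Upk1b, the tetraspanin uroplakin that pairs with uroplakin 3 proteins, lacked the high values of Upk3bl1 in HSRA-C replicates 3 and 4. It read 4.51, 4.13, 4.63 and 4.03 in the HSRA-S kidneys, against 4.48, 4.30, 4.45 and 4.54 in the HSRA-C kidneys. The controls lay within the range of the solitary kidneys, and HSRA-S replicate 4 was lowest, as for Upk3bl1. The difference was -0.12 (SE 0.13, 95% interval -0.41 to 0.17), with an adjusted p of 0.747 in limma. It was -0.22 without HSRA-S replicate 3, -0.18 without HSRA-S replicate 1, -0.051 without HSRA-S replicate 2 and -0.019 without HSRA-S replicate 4.

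Krt14, the type I keratin of basal cells, was dim and varied most among the solitary kidneys. It read 4.30, 3.75, 3.86 and 3.69 in HSRA-S, against 3.92, 3.59, 3.73 and 3.83 in HSRA-C. HSRA-S replicate 1 was the highest kidney and the others overlapped. The difference was 0.13 (SE 0.13, 95% interval -0.16 to 0.42), and without HSRA-S replicate 1 it was -0.0025. It was 0.20 without HSRA-S replicate 4 and 0.071 without HSRA-C replicate 2.

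Krt20, the keratin of umbrella cells, read 3.35, 3.26, 3.14 and 3.01 in HSRA-S, against 3.26, 2.99, 3.10 and 3.25 in HSRA-C. All 8 values lay below the filter on dim genes. In the fit without the filter its difference was 0.039 (SE 0.092), and values this low are compressed in RMA summaries.

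The simple keratins were also set against the other measured members within each array. The mean of Krt7, Krt8 and Krt19 minus the mean of Krt14, Krt20, Upk1b, Upk3bl1 and Psca was 3.05, 3.21, 2.92 and 3.77 in HSRA-S, against 3.18, 2.89, 2.58 and 2.41 in HSRA-C. HSRA-S replicate 4 had the highest and HSRA-C replicates 3 and 4 the lowest values, so the contrast followed Psca and Upk3bl1. The simple keratin mean alone was 7.84 to 7.94 in HSRA-S and 7.60, 7.51, 7.86 and 7.78 in HSRA-C replicates 1 to 4, where the low pair was that of Krt19.

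The other uroplakins and urothelial genes gave a mixed check of the urothelial label. Of 18 listed genes 15 were measured and 12 tested, and 0 passed the adjusted threshold, 0 were higher and 1 was lower at an unadjusted p under 0.05, against 7.36% higher and 4.69% lower over all tested genes. Their median difference was -0.11, against 0.015 over all tested genes. The urothelial regulators Tp63 and Foxa1 and the uroplakin Upk3b were below the filter on dim genes in mean level, and Upk2 had no probe set of its own. Upk3b, the RefSeq neighbour of Upk3bl1, read 3.32, 3.13, 2.60 and 2.79 in HSRA-S, against 2.87, 2.67, 2.59 and 2.82 in HSRA-C, without the high values in HSRA-C replicates 3 and 4.

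Upk1a, the tetraspanin partner of Upk2, had an order of its own. It read 5.40, 5.51, 5.88 and 4.50 in HSRA-S, against 5.41, 4.71, 5.45 and 5.68 in HSRA-C, with a difference of 0.0058 (SE 0.28). Sprr1a, a cornified envelope precursor made in layered epithelia, read 7.21, 7.36, 7.61 and 5.45 in HSRA-S, against 7.27, 6.42, 7.14 and 7.47 in HSRA-C. In both genes HSRA-S replicate 4 was lowest and HSRA-C replicate 2 next, while HSRA-S replicate 3 was highest and HSRA-C replicate 4 next to it. Of the ends of the Psca order they thus shared HSRA-S replicate 4 and HSRA-C replicate 4, but not HSRA-C replicates 1 and 3. Upk3a, the partner of Upk1b, varied little, from 4.89 to 5.26 in HSRA-S and from 4.95 to 5.03 in HSRA-C.

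Among the urothelial genes of smallest p, Cldn4, a tight junction claudin also found in collecting duct, had a difference of -0.36 (SE 0.16, adjusted p = 0.414 in limma). Ehf, an epithelial transcription factor, was at -0.51 (SE 0.32) and took its lowest value in HSRA-S replicate 4 and its highest in HSRA-C replicates 3 and 4. Klf5, a zinc finger factor of urothelium and collecting duct, was at -0.26 (SE 0.14), and Shh, a secreted signal of ureteric epithelium, at 0.14 (SE 0.073). None of the 4 passed over all genes.

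Of 26 other keratins listed, 21 were measured and 11 tested. None passed the adjusted threshold, and 1 was higher and 0 lower at an unadjusted p under 0.05, against 7.36% and 4.69% of all tested genes. Their median difference was 0.014, close to the 0.015 of all tested genes. The gene of smallest p was Krt84, a hair keratin, at a difference of 0.19 (SE 0.081) with a mean level of 3.68, just above the filter. Krt9 was at 0.099, Krt86 at -0.12 and Krt80 at 0.074, each with an adjusted p of at least 0.521 in limma. Of the urothelial basal or intermediate cell keratins, Krt13 and Krt17 were below the filter.

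Genes that anchor keratin filaments at desmosomes and hemidesmosomes lay on both sides of 0. All 14 were tested, 0 passed the adjusted threshold, and 1 was higher and 1 lower at an unadjusted p under 0.05, with a median difference of -0.035. Over all tested genes 7.36% were higher and 4.69% lower, so none of these 3 lists had a count far from the background. Itga6, the integrin subunit that pairs with Itgb4 in hemidesmosomes, was the one higher gene, at 8.97, 8.59, 8.66 and 8.81 in HSRA-S, against 8.41, 8.57, 8.34 and 8.43 in HSRA-C. Its groups did not overlap, as held for 4.12% of all genes on the higher side, and its difference was 0.32 (SE 0.091, adjusted p = 0.331 in limma). Its partner Itgb4 was at -0.24 (SE 0.12), the desmosomal protein Ppl at -0.38 (SE 0.19) and Jup at -0.14 (SE 0.063).

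Markers of other cell types that carry keratins or surround the urothelium were read beside these values. The mean of 7 measured smooth muscle markers, with Tagln and Smtn of highest intensity, was 5.79 to 5.98 in HSRA-S and 5.79 to 5.88 in HSRA-C. The mean of 5 mesothelium markers, with Wt1 and Msln of highest intensity, was 4.23 to 4.49 in HSRA-S and 4.23 to 4.42 in HSRA-C. Wt1, the brightest of them, is also on the podocyte list, and Upk3b lay below the filter on dim genes. That mean is therefore not a measure of mesothelium alone. The 7 measured tubular injury markers, with Cd24 and Clu of highest intensity, averaged 6.54 to 6.86 in HSRA-S and 6.55 to 6.92 in HSRA-C. The ranges of the groups overlapped for all 3 lists.

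Proximal tubule markers, which include the phosphate transporter Slc34a1 and the inositol oxygenase Miox, averaged 10.27 to 10.64 in HSRA-S and 10.05 to 10.30 in HSRA-C. The mean of 6 thick ascending limb markers, among them Umod and the salt cotransporter Slc12a1, was 9.6 to 9.88 in HSRA-S and 9.82 to 9.89 in HSRA-C. The ranges of these means overlapped between the groups in both lists. Of 15 proximal tubule markers tested, 12 had a positive difference and 0 passed the adjusted threshold. At an unadjusted limma p under 0.05, 5 were higher and 0 lower, against 7.36% and 4.69% of all tested genes. For 4 of the 15 the groups did not overlap, on the higher side, as held for 4.12% of all genes. The 4 measured podocyte markers, among them Podxl and nephrin (Nphs1), averaged 7.23 to 7.54 in HSRA-S and 7.41 to 7.53 in HSRA-C. The mean of 8 leukocyte markers, among them the invariant chain Cd74 and the coreceptor Cd4, was 5.89 to 6.32 in HSRA-S and 5.64 to 5.95 in HSRA-C, with HSRA-S replicate 4 the only solitary kidney within the range of the controls. All 8 leukocyte markers had a positive difference and 0 passed the adjusted threshold. Of them, 3 were higher and 0 lower at an unadjusted limma p under 0.05, against the same 7.36% and 4.69%. The part of these markers in the keratin values was not tested beyond the covariate.

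The genes most like the members in pattern were sought among the 13789 other tested genes by Pearson correlation over the 8 arrays, as a description. The closest to the mean of Krt7, Krt8 and Krt19 were Rrp9, Ctnnbip1, Rpl38l5, Spryd7 and Was, with r from 0.93 to 0.95. All 5 were lowest in HSRA-C replicates 1 and 2, the kidneys with low Krt19. The closest to the mean of the other measured members were Plod2, Grhl2, Mamdc2, Slc14a2 and Smad1, with r of 0.98 each. The kidneys fall into separate sets for these genes, and over the 6 arrays without HSRA-C replicates 3 and 4 the r of the same genes was 0.94 to 0.98. Those 6 arrays keep HSRA-C replicates 1 and 2, the low kidneys of the simple keratin profile. They therefore cannot show whether the r of that profile rests on this pair. They also keep HSRA-S replicate 4, the lowest kidney for the profile of the other members and for all 5 genes closest to it. Whether the r of that profile rests on HSRA-S replicate 4 cannot be seen from these arrays either.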

How the data were processed

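Whole kidneys of 4 HSRA-S and 4 HSRA-C rats were measured on 1 array each. The deposited values are RMA intensities per the submitters' processing notes. The software that ran RMA is not given in the sources used here. They are on a linear scale, from 2.12 to 9259, and log2 was taken. RMA sets the arrays' intensity distributions equal and compresses dim values. All 8 value columns were used, and the values come with no genome build.

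Of 29214 probe sets, 18644 had exactly 1 gene symbol in the platform annotation, 962 several and 9608 none, and 18460 of the first kind matched a RefSeq gene ID of GRCr8. Per gene, the probe set of highest mean was used. The dimmest 20% of 17245 genes were left out, which left 13796. The groups were compared by limma 3.58.1 in R 4.3.3 (lmFit, eBayes without trend), with Benjamini-Hochberg adjustment over all tested genes at 0.05. On simulated data for this comparison, made from 13796 genes, 79.5% of genes changed 1.5-fold and 96.3% of those changed 2-fold were called, with independent errors that real genes do not have.

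The members and lists were chosen with earlier results of these data known. Named were all members, up to 4 genes of smallest p per related list, the 2 genes of highest intensity of each marker list and the 5 genes most like each profile. Upk1a, Upk3a, Upk3b, Sprr1a, Aqp4, Fxyd4, Scnn1b, Tp63, Foxa1, Krt13 and Krt17 were chosen after their values were seen. Vim was also named outside these rules, and Hoxb5 for passing under some alternatives. Alternatives changed the filter, probe sets, variance model, normalization, samples, the covariates and a block on the replicate number. Deviations from the group means of same-numbered samples correlated at -0.068, 0.070, 0.13 and -0.11, so the numbers were not taken to pair the samples.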

Additional observations from a re-analysis of the deposited data

Results flagged for a closer look

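Of 110 groups of 4 kidneys, from 55 of the genes or probe sets named here, 8 had a kidney far from the other 3. For independent groups chance gives about 5%. Many of these genes were chosen from these data and share patterns over the arrays, so that rate is no firm reference here. Among the members the kidney flagged was HSRA-C replicate 2 for Krt7, at 7.97 with the other controls from 8.12 to 8.14. Of the others, 6 were in HSRA-S replicate 4. They were low for Slc14a2 (4.44, next 6.85), Ehf (6.10, next 7.20), Plod2 (6.71, next 7.37) and Cd4 (6.12, next 6.61), and high for the phosphate transporter Slc34a1 (12.09, next 11.86) and the injury marker Clu (8.27, next 7.79). Klf5 in HSRA-S replicate 2 stood at 5.40, above the next HSRA-S kidney at 5.26.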

How the results depend on the processing

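No member passed the adjusted threshold under any of the 19 alternatives run, and Krt8 and Krt19 kept a positive difference in all of them (0.16 to 0.30 and 0.22 to 0.90). Over all genes, 1 gene, Hoxb5, passed with the dimmest 50% left out and with an intensity trend, and 0 in the other alternatives. Genes at an unadjusted p under 0.05 numbered 1663, against 669 without HSRA-C replicates 3 and 4, 1070 with the covariate and 787 with the list medians as covariate, an alternative chosen after seeing the data, and single kidneys left out gave 1010 to 1942. The sign turned without HSRA-C replicates 3 and 4 for Krt7 (0.0085), Upk3bl1 (0.31) and Psca (0.11), and with the covariate for Krt7 (0.0085), Upk1b (0.049), Upk3bl1 (0.42) and Psca (0.48). With the list medians as covariate it turned for the same 4 genes (0.063, 0.12, 1.04 and 0.98). Fewer samples enter the first of these, and for the covariates the cause was not tested. With 1 kidney left out, the differences ran from -0.0025 to 0.20 for Krt14, from -0.014 to 0.10 for Krt20 and from -0.069 to 0.0096 for Krt7. Krt20 turned without HSRA-S replicate 1 (-0.013) and HSRA-C replicate 2 (-0.014). Krt8 was above an unadjusted p of 0.05 without HSRA-S replicate 1 or 4 or HSRA-C replicate 2 or 4. With the replicate block 1586 genes had an unadjusted p under 0.05, 0 members or genes passed, and the Krt8 difference was 0.23 (limma adjusted p = 0.412). The block changed no other call. The 50% filter gave no value for Krt14, Krt20 and Upk1b. Krt14, Krt20 and Upk1b are dim, which limits what can be seen of them.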

Other observations

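Among intermediate filaments other than keratins, the neurofilament chains had differences of either sign. Nefl, the light chain of neurons, read 4.54, 3.81, 4.34 and 4.74 in HSRA-S, against 5.63, 4.50, 5.19 and 5.24 in HSRA-C, a difference of -0.78 (SE 0.24, adjusted p = 0.333 in limma). Nefm, the medium chain, was at -0.47 (SE 0.18) and the heavy chain Nefh at 0.20 (SE 0.072). HSRA-C replicate 2 was the lowest control for Nefl and Nefm. Of 11 tested genes of that list 0 passed the adjusted threshold, and 1 was higher and 2 lower at an unadjusted p under 0.05, against 7.36% and 4.69% of all tested genes. Vim, the filament of mesenchymal cells, was level at -0.032 (SE 0.093), and the nuclear lamin Lmna was at 0.10 (SE 0.053).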
